A study of Mus musculus with 7 samples.

Results

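The 42 genes described here encode the proteins that copy DNA during S phase of the cell cycle. The rule for the list is by name, as replication and S-phase genes, and holds no measured value. The list was nonetheless chosen with earlier results of these data known, so it is not independent of them. All 42 were found among the 25033 genes listed by symbol and RefSeq transcript in the 7 libraries, and all 42 passed the filter for low counts, with no member under 47 reads in any library. RNA sequencing was done on primary T-cells of C57BL/6J mice aged 15 months by the labels, 4 of them ORP4L KI and 3 wild-type littermates (WT), and each mouse gave 1 library. By their Xist and Ddx3y RNA, WT replicate 1 and ORP4L KI replicates 1 and 2 were female and the others male. The ORP4L KI genome holds a human ORP4L coding sequence with a Flag tag and an EGFP reporter, driven by the CAG promoter at the Rosa26 locus behind a loxP-flanked stop, and Lck-Cre removes that stop in T-cells. The ORP4L KI mice were taken when moribund and the WT littermates at the same age, so genotype and state of health cannot be told apart. The study's general methods describe mouse T-cells taken from blood or spleen, purified with an isolation kit for naive CD4+ T-cells and then grown with IL-2 and the mitogen PHA. Whether the cells sequenced here were prepared in that way, and whether WT littermates carried Lck-Cre, is not given in the sources used here.

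DNA replication begins in G1 phase, when the origin recognition complex with Cdc6 and Cdt1 loads the MCM2-7 helicase onto origins. In S phase Cdc45 and the GINS complex turn MCM2-7 into an active helicase, and primase, the replicative polymerases, the sliding clamp PCNA, its loader RFC and the single-strand binding protein RPA copy the unwound strands. Most of these genes are targets of E2F transcription factors and are low in resting T-cells, which leave quiescence and transcribe them when activated.

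The question addressed was whether ORP4L KI T-cells held more RNA of the replication genes than WT T-cells. The replication genes lay mostly, but modestly, above WT. Of the 42 genes, 37 had a log2 fold change above 0 (ORP4L KI over WT), with a median of 0.46 beside 0.01 over the 13462 genes tested. With other scalings between 36 and 38 of them were above 0. The largest value was that of Rrm2, the small subunit of ribonucleotide reductase, at 1.69 on the same scale, and the genes of DNA polymerase δ, Rpa1 and Rfc1 differed by less than their standard errors. The genes with the next largest values were Cdc6, Cdc45 and Tk1, at 1.16, 1.16 and 1.06. By edgeR's quasi-likelihood test 1 of the 42 genes, Rrm2, had both a log2 fold change above 1 and an unadjusted p under 0.01, the pair of thresholds drawn in the study's volcano plot. This share of 2.38% equalled the background, since 2.38% of all genes tested were called higher at the same thresholds. None of the 42 was called lower, beside 2.3% of all genes.

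With the threshold on p alone, set at 0.05 without adjustment, 9 of the 42 genes were higher (21.4%), beside 6.85% of all genes tested. They were Orc1, Orc6, Cdc6, Cdc45, Pcna, Rfc4, Rpa2, Rrm1 and Rrm2, and none was lower. Once p-values were adjusted over all 13462 genes by Benjamini-Hochberg, 0 of the 42 had an adjusted p under 0.05 by edgeR's quasi-likelihood test, beside 0.0223% of all genes. By other tools the same threshold was passed by 3 members with DESeq2's Wald test (Cdc6, Rpa2 and Rrm2, 7.14%), beside 5.82% of all genes, and by 2 members, Rpa2 and Rrm2 (4.76%), with edgeR's likelihood ratio and exact tests, beside 5.24% and 5.07%. In 11 of the 42 genes (26.2%) every ORP4L KI library lay above every WT library, beside 6.43% of all genes. These were Orc1, Orc6, Cdc6, Cdt1, Mcm4, Prim2, Pcna, Rfc4, Rpa2, Rrm1 and Rrm2. No member had every ORP4L KI library below every WT library.

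**Figure D1:**
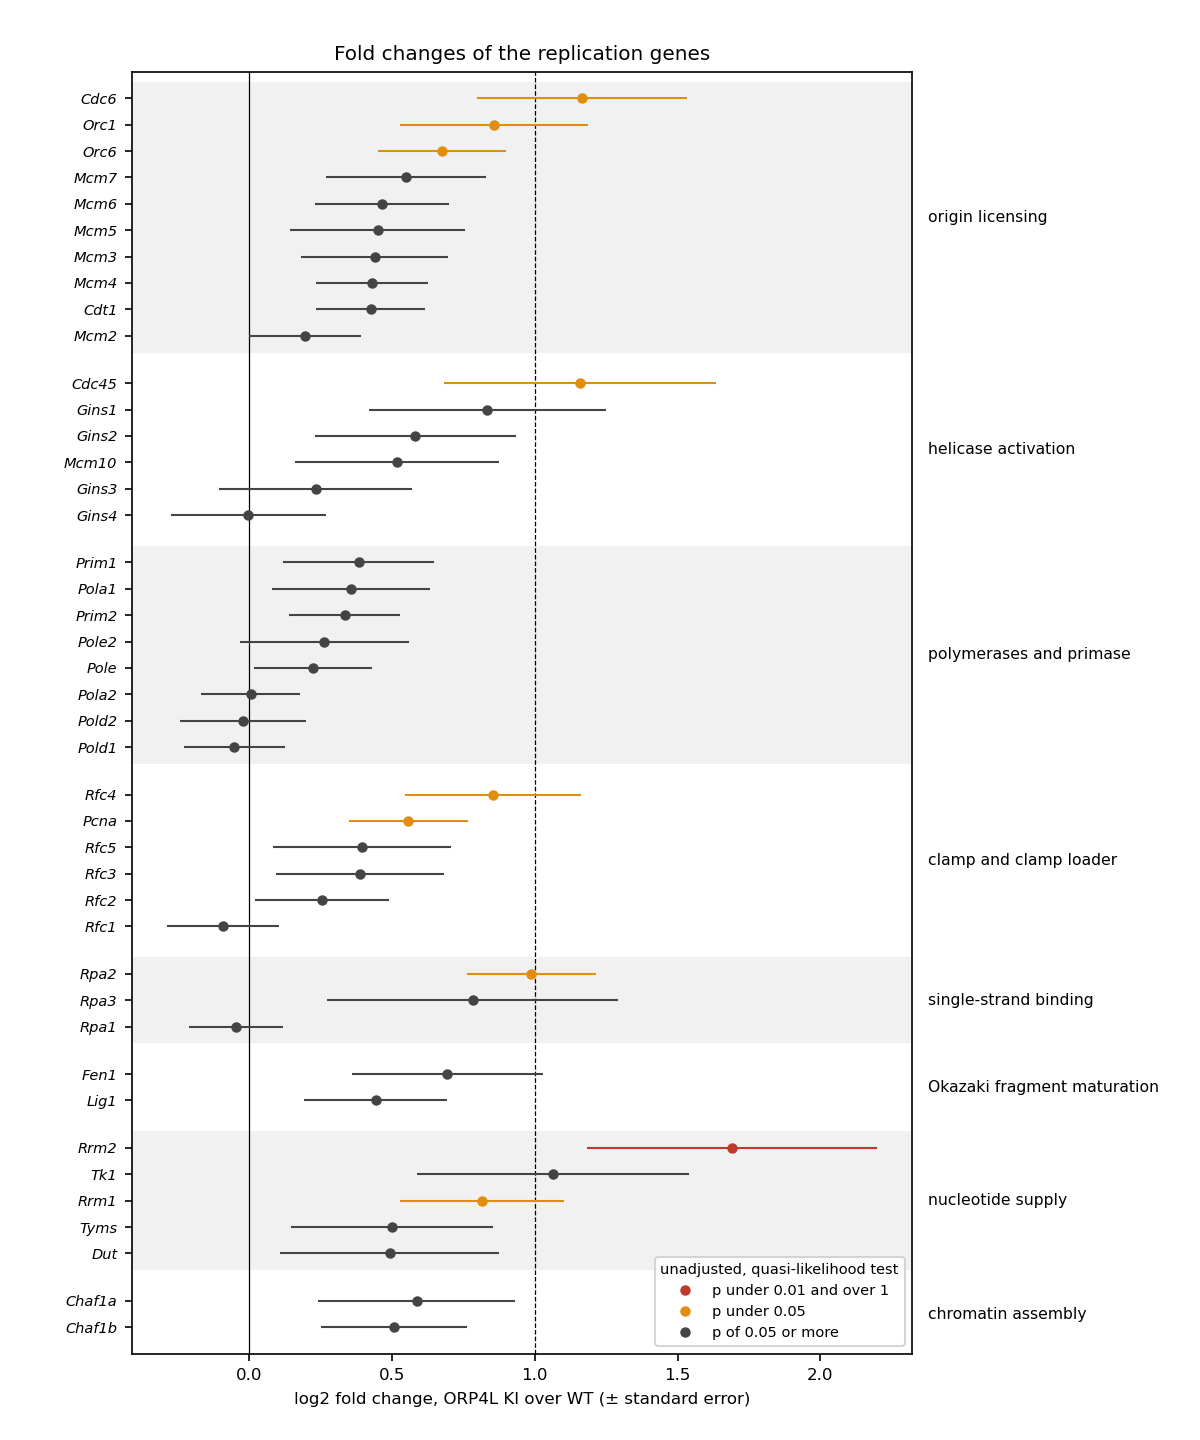
Log2 fold change of each of the 42 replication genes (x axis, ORP4L KI over WT) with its standard error (SE) from edgeR's quasi-likelihood test, grouped by role. Red marks Rrm2, past both thresholds, orange marks the 8 further genes with an unadjusted p under 0.05, and Gins4, Pola2, Pold2, Rpa1, Pold1 and Rfc1 sit nearest to 0.

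ORP4L KI replicate 1 was the highest of the 7 libraries for 32 of the 42 genes (76.2%), beside 28.6% of all genes tested, and WT replicate 3 was the lowest for 34 (81.0%), beside 21.5%. Relative to the WT mean, the median log2 difference of the 42 genes was 0.93 in ORP4L KI replicate 1 and 0.18, 0.29 and 0.32 in replicates 2, 3 and 4. Without ORP4L KI replicate 1 the median log2 fold change of the members was 0.26, with 35 of the 42 above 0 and a median of all genes of -0.01. Without WT replicate 3 it was 0.31, without WT replicate 1 it was 0.62, and no member passed both thresholds when WT replicate 3 was left out. The number with an unadjusted p under 0.05 was 5 without WT replicate 3 (11.9%, beside 5.91% of all genes) and 14 without ORP4L KI replicate 2 (33.3%, beside 8.64%). The number whose groups did not overlap was 22 without WT replicate 1 (52.4%, beside 9.2% of all genes). Scaling by total counts alone lowered the median of all genes to -0.13 and that of the members to 0.30, and left 7 members whose groups did not overlap (16.7%, beside 4.58%).

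**Figure D2:**
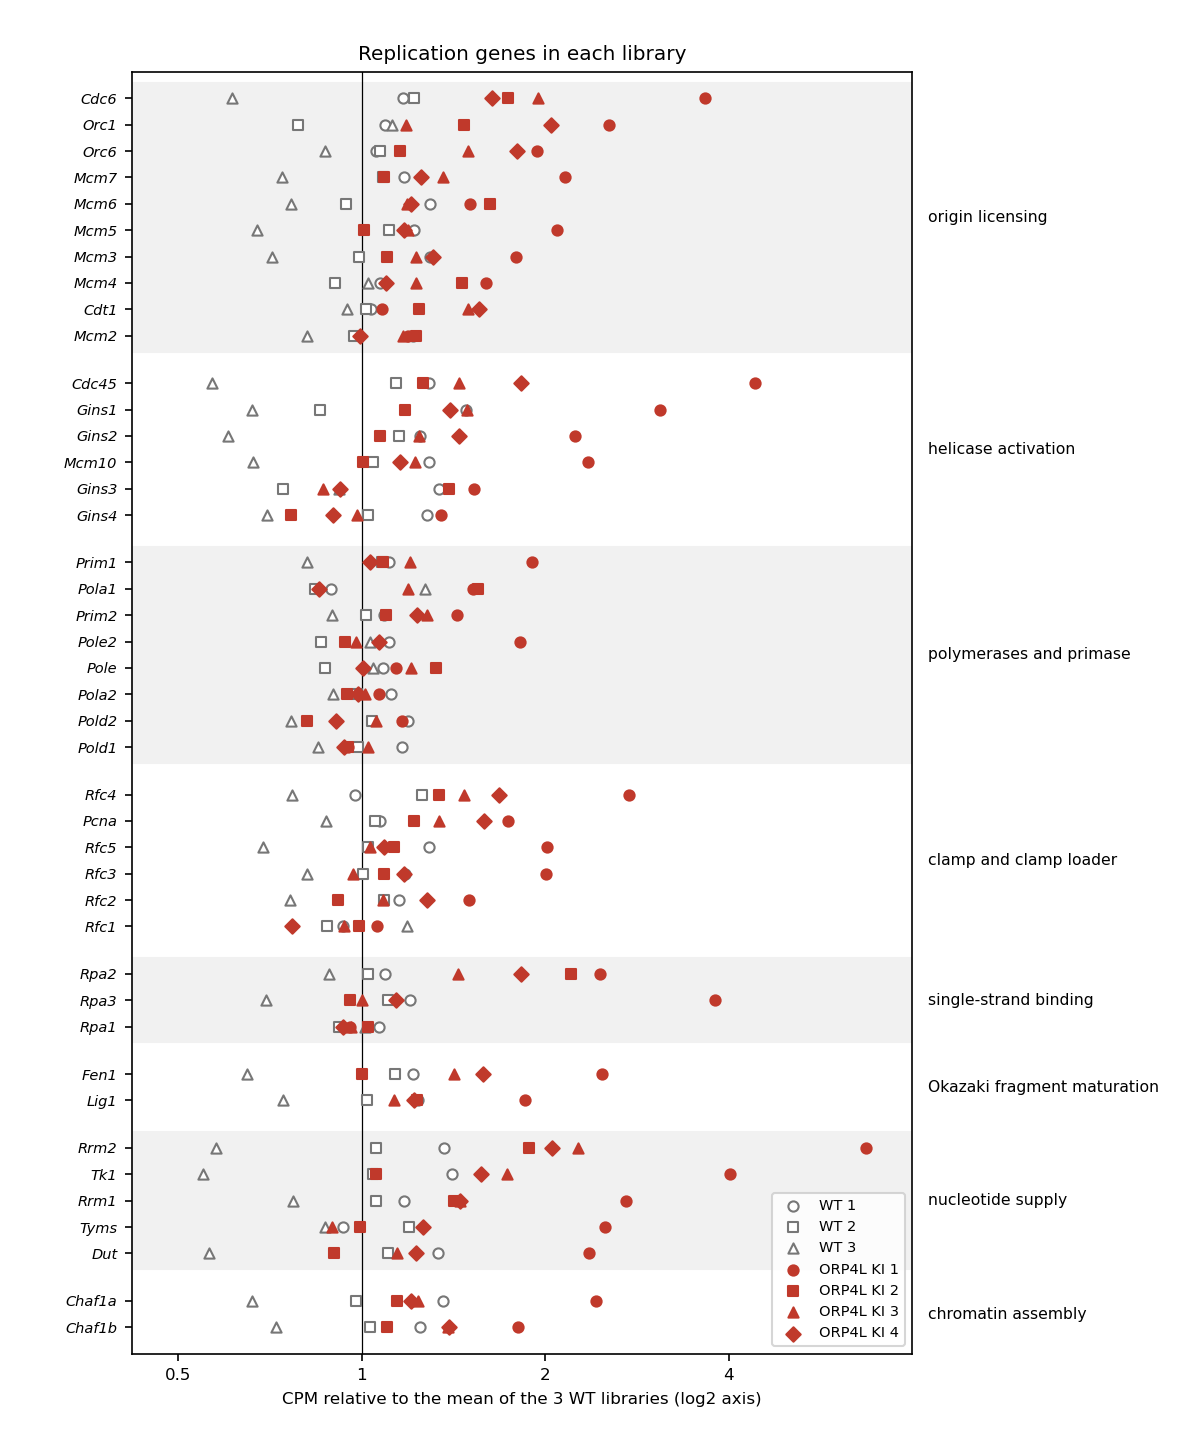
Level of each replication gene in each of the 7 libraries, as CPM (read counts relative to the TMM-scaled library size) divided by the mean of the 3 WT libraries, on a log2 axis. Open grey symbols are WT libraries and filled red symbols ORP4L KI libraries. ORP4L KI replicate 1 (red circles) is the highest library for 32 of the 42 genes, and WT replicate 3 (grey triangles) the lowest for 34.

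The read total was between 12918187 and 15912921 in WT and between 16757959 and 19665679 in ORP4L KI libraries. The mouse gene of ORP4L, Osbp2, was at 0, 0 and 1 reads in WT libraries and at 11.4, 40.6, 8.90 and 27.6 CPM in ORP4L KI replicates 1 to 4, where reads of the introduced human sequence cannot be told apart from those of the mouse gene. Each of 13 T-cell marker genes, among them Cd3e and Lck, had at least 1003 reads in every library. Their summed level ran from 2705 to 3566 CPM in WT and from 1600 to 4472 CPM in ORP4L KI, with the lowest sum in ORP4L KI replicate 1. Of these genes Cd4 was at 256.6 to 360.0 CPM in WT and 93.38 to 414.5 CPM in ORP4L KI. Cd8a was at 123.8 to 178.6 CPM in WT and 79.56 to 226.3 CPM in ORP4L KI. Markers of neutrophil precursors were not absent from any library: all 14 on the list passed both thresholds, and took 0.200% to 0.520% of counts in WT and 1.08% to 11.6% in ORP4L KI, the most in ORP4L KI replicate 1. Of 8 dendritic cell markers 6 were called lower, with sums of 492.5 to 763.0 CPM in WT and 148.3 to 269.5 CPM in ORP4L KI. Of 8 NK cell markers 4 were called lower (548.1 to 730.5 and 430.1 to 1036 CPM). Of the same 8, 2 were higher at an unadjusted p under 0.05 by edgeR, Eomes and Nkg7, at log2 fold changes of 1.59 and 0.69. Of 10 monocyte and macrophage markers 2 were called lower and 1 higher (3085 to 5468 and 2243 to 8075 CPM). Among 11 erythroid markers 5, the hemoglobin genes and Alas2, were lower at an unadjusted p under 0.05 by edgeR and none was called (9907 to 18590 and 1167 to 8641 CPM). Among the 7 progenitor markers that were tested 2, Prom1 and Erg, were called higher and 1, Kit, lower. The sum of all 8 listed progenitor markers was 78.95 to 103.8 CPM in WT and 58.28 to 162.0 CPM in ORP4L KI. None of 10 B-cell and 7 platelet markers had an unadjusted p under 0.05 by edgeR (373.9 to 615.5 and 214.1 to 650.2 CPM, and 193.6 to 231.5 and 103.0 to 361.9 CPM). No tested marker of these lists was at 0 reads in any library. The part of these cells in the results was not tested, and in bulk RNA fewer cells of a type and less RNA per cell cannot be told apart.

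The letters of the E2F motif were searched in the promoters of the replication genes, since E2F is the factor family best known to bind there. RefSeq promoter windows of GRCm38 (mm10), 250 bases before to 50 after the transcription start, matched 35 of the 42 genes. The motifs TTTCGCGC, TTTGGCGC, TTTCCCGC and TTTGCCGC were searched on both strands, and matches may overlap. A match was found for 13 of the 35 genes (37.1%), beside 2.6% of all 27025 genes with a window and 4.6% of the 10622 of them that were tested. The median log2 fold change was 0.44 for the 13 genes with a match and 0.54 for the 22 without, and 2 and 7 of them had an unadjusted p under 0.05. The values ran from -0.05 to 1.16 in genes with these letters and from -0.09 to 1.69 in genes without them. The 250 bases before the start are shown for the 4 genes with a match and the highest log2 fold changes, for Rfc1, the gene without a match and with the lowest value, and for Rrm2, which was chosen after its values were seen. Sequences run 5′ to 3′ on the strand of the gene, and capitals mark the E2F letters.
Cdc6: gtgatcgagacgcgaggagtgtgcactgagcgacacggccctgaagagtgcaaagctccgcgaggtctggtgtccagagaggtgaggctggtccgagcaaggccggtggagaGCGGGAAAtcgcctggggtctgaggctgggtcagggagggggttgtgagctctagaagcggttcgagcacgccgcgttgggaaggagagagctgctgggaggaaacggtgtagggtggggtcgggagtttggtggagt
Orc1: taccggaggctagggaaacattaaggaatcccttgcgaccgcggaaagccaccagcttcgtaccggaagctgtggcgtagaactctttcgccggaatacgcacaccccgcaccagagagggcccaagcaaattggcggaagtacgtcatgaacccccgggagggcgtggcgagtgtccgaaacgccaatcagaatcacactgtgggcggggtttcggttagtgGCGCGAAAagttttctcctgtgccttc
Mcm7: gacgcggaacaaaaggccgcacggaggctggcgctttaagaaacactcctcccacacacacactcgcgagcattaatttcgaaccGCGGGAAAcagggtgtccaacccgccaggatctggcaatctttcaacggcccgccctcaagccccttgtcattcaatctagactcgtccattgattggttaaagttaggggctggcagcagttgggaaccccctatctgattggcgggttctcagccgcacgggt
Mcm6: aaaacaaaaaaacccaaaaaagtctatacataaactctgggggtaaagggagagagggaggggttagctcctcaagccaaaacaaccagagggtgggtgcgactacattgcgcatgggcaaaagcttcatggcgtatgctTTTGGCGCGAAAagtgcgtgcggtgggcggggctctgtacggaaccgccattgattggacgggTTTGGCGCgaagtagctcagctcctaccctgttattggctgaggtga
Rfc1: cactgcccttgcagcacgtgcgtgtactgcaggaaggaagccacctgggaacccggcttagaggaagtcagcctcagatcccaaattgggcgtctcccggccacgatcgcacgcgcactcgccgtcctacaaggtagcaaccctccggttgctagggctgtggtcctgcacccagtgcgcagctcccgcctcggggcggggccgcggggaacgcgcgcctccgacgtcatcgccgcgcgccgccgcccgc
Rrm2: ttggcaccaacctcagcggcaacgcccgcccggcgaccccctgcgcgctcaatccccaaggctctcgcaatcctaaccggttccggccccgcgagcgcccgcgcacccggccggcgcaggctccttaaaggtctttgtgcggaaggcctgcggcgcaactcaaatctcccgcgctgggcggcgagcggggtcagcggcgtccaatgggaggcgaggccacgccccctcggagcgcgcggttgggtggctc
The windows lie at chr11:98907901-98908150, plus strand, for Cdc6, at chr4:108579204-108579453, plus strand, for Orc1, at chr5:138171884-138172133, minus strand, for Mcm7, at chr1:128359706-128359955, minus strand, for Mcm6, at chr5:65335640-65335889, minus strand, for Rfc1, and at chr12:24708004-24708253, plus strand, for Rrm2. The start here is that of the window, which is not always the outer end of the RefSeq gene. On the plus strand, Cdc6 begins at chr11:98907709 and Orc1 at chr4:108575705. On the minus strand, Rfc1 begins at chr5:65338617 and Mcm7 at chr5:138172111. The stretches shown for Cdc6, Orc1 and Rfc1 thus lie inside the gene, and that for Mcm7 mostly so. Those for Mcm6 and Rrm2 end where the gene begins. The match began 138 bases before the start in Cdc6, 27 in Orc1 and 165 in Mcm7. In Mcm6 there were 3, beginning 110, 106 and 47 bases before the start, of which the first overlaps the next. The windows of Rfc1 and Rrm2 held none of these letters, which says only that they are not in this stretch. The capitals are matches of letters and were not measured as binding sites.

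Origin licensing was the role with the most genes, and 10 of its 10 members had a log2 fold change above 0, with a median of 0.46. Cdc6, the ATPase that helps the origin recognition complex load the helicase, had 9.26, 9.62 and 4.85 CPM in WT replicates 1 to 3 and 29.0, 13.8, 15.4 and 12.9 CPM in ORP4L KI replicates 1 to 4. The groups did not overlap, and ORP4L KI replicate 1 stood well above the other 3. This gave a log2 fold change of 1.16 (SE 0.37, unadjusted p = 0.0109, adjusted p = 0.182, edgeR), and 0.82 without ORP4L KI replicate 1. Orc1 and Orc6, subunits of the origin recognition complex, had log2 fold changes of 0.86 and 0.68, and neither overlapped between groups. Cdt1, the loading partner of Cdc6, had a log2 fold change of 0.43 and was highest in ORP4L KI replicate 4.

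The subunits of the MCM2-7 helicase had smaller values, from 0.20 for Mcm2 to 0.55 for Mcm7, and none of the 6 had an unadjusted p under 0.05. Mcm7, the subunit with the highest level per length, had 100.4, 92.9 and 63.5 CPM in WT and 184.9, 93.1, 116.4 and 107.0 CPM in ORP4L KI libraries. ORP4L KI replicate 1 was the highest, and replicate 2 lay between WT replicates 1 and 2. The log2 fold change of Mcm7 was 0.55 (SE 0.28, adjusted p = 0.442, edgeR). Mcm2 had 83.2, 66.4 and 55.7 CPM in WT and 81.7, 84.1, 80.1 and 67.9 CPM in ORP4L KI libraries, so that the groups overlapped over most of their range. This gave a log2 fold change of 0.20 (SE 0.20, adjusted p = 0.755, edgeR). Mcm3, Mcm4, Mcm5 and Mcm6 had log2 fold changes between 0.43 and 0.47, and among the 6 subunits the groups did not overlap in Mcm4 alone. Mcm5 in ORP4L KI replicate 1 had 161.8 CPM, beside 78.2 to 92.1 CPM in the other ORP4L KI libraries and 52.1 to 94.2 CPM in WT. The level per length, in RPKM (read counts relative to transcript length and library size), was within a factor of 1.73 to 3.15 between the highest and the lowest of the 6 subunits in each library, and Mcm7 was the highest in 6 of the 7 libraries.

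The genes that turn the loaded helicase on had log2 fold changes from -0.003 to 1.16. Cdc45, which joins MCM2-7 and GINS in the active helicase, had 16.1, 14.2 and 7.09 CPM in WT and 55.0, 15.7, 17.98 and 22.8 CPM in ORP4L KI libraries. Only ORP4L KI replicate 2 fell within the WT range, and replicate 1 was far above the others. The log2 fold change of Cdc45 was 1.16 (SE 0.48, unadjusted p = 0.0365, adjusted p = 0.317, edgeR), and its value was 0.59 without ORP4L KI replicate 1. The GINS genes, whose 4 products form one complex, had log2 fold changes of 0.83 for Gins1, 0.58 for Gins2, 0.23 for Gins3 and -0.003 for Gins4. Gins4 had 28.8, 23.0 and 15.7 CPM in WT and 30.4, 17.2, 22.1 and 20.2 CPM in ORP4L KI libraries. Its groups overlapped almost completely (SE 0.27, adjusted p = 0.997, edgeR), and the sign of its value turned under several settings. Gins4 was the highest and Gins3 the lowest of the 4 in RPKM in every library, 5.51 to 13.8 times apart. Mcm10, which helps start unwinding, had a log2 fold change of 0.52, and in ORP4L KI replicate 1 it stood at 23.2 CPM beside 9.91 to 12.1 CPM in the other 3.

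The DNA polymerase and primase genes had a median log2 fold change of 0.24, which was 0.0665 without ORP4L KI replicate 1 and 0.0825 with total counts, and none of the 8 had an unadjusted p under 0.05. Prim1, the catalytic subunit of primase, had 18.9, 18.4 and 13.8 CPM in WT and 32.4, 18.5, 20.4 and 17.6 CPM in ORP4L KI libraries. Its groups overlapped, and the log2 fold change of 0.38 (SE 0.26, adjusted p = 0.61, edgeR) was the highest of this role. Pold1, the catalytic subunit of polymerase δ, had 59.0, 49.99 and 42.9 CPM in WT and 48.1, 48.0, 51.9 and 47.3 CPM in ORP4L KI libraries. The 4 ORP4L KI values of Pold1 lay within the WT range. This gave a log2 fold change of -0.05 (SE 0.18, adjusted p = 0.944, edgeR). Pold2, the accessory subunit of polymerase δ and the highest gene of this role per length, had 32.9, 28.8 and 21.2 CPM in WT and 32.3, 22.5, 29.2 and 25.1 CPM in ORP4L KI libraries, again within the WT range. Its log2 fold change was -0.02 (SE 0.22, adjusted p = 0.982, edgeR). Polymerase α, which extends the primer, had log2 fold changes of 0.36 for Pola1 and 0.006 for Pola2, which was -0.14 when scaled by total counts, and polymerase ε, the leading-strand enzyme, had 0.22 for Pole and 0.26 for Pole2. In Prim2, the large subunit of primase, the groups did not overlap although its log2 fold change was 0.33 (SE 0.19, adjusted p = 0.516, edgeR). ORP4L KI replicate 1 was the highest library for 3 of these 8 genes.

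Among the clamp and clamp loader genes, Pcna and Rfc4 stood above the others. Pcna, the ring that holds polymerases on DNA, was the most abundant member per length, at 205.6 RPKM in WT and 270.7 RPKM in ORP4L KI T-cells on average. It had 262.6, 257.8 and 214.4 CPM in WT and 426.5, 298.5, 327.5 and 389.5 CPM in ORP4L KI libraries. The groups did not overlap, and ORP4L KI replicate 4 lay near replicate 1. The log2 fold change of Pcna was 0.56 (SE 0.21, unadjusted p = 0.0241, adjusted p = 0.267, edgeR), and it kept between 0.46 and 0.62 whichever library was left out. Rfc4, a small subunit of the loader that opens the ring, had 10, 12.9 and 7.87 CPM in WT and 28.1, 13.8, 15.1 and 17.2 CPM in ORP4L KI libraries, without overlap. Its log2 fold change was 0.85 (SE 0.31, unadjusted p = 0.0207, adjusted p = 0.246, edgeR). Rfc1, the large subunit, had 57.2, 53.8 and 72.8 CPM in WT and 65.0, 60.7, 57.4 and 47.1 CPM in ORP4L KI libraries. Its highest value was in WT replicate 3, the library that was the lowest for most members, and its log2 fold change was -0.09 (SE 0.19, adjusted p = 0.903, edgeR). Rfc2, Rfc3 and Rfc5 had log2 fold changes of 0.26, 0.39 and 0.40 with overlapping groups.

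The 3 genes of RPA, the trimer that coats single-stranded DNA, had log2 fold changes as far apart as -0.05 and 0.99. Rpa2, the middle subunit, had 34.0, 31.9 and 27.6 CPM in WT and 76.7, 68.8, 44.9 and 57.0 CPM in ORP4L KI libraries. The groups did not overlap, and the higher level was seen in each ORP4L KI library: the means were 31.2 ± 3.28 CPM (SD, n = 3) in WT and 61.9 ± 13.9 CPM (SD, n = 4) in ORP4L KI. Rpa2 had the smallest p-value of the 42 genes, with a log2 fold change of 0.99 (SE 0.22, unadjusted p = 0.00156, adjusted p = 0.0903, edgeR). It fell just short of the fold threshold, which it passed under DESeq2's size factors and with WT replicate 1 or 2 or ORP4L KI replicate 3 or 4 left out, and without ORP4L KI replicate 1 its log2 fold change was 0.87. Rpa1, the large subunit, had 141.1, 121.6 and 133.9 CPM in WT and 126.6, 135.5, 127.0 and 123.4 CPM in ORP4L KI libraries. The ORP4L KI values lay within the WT range, at a log2 fold change of -0.05 (SE 0.16, adjusted p = 0.947, edgeR). The ratio of Rpa2 to Rpa1 in RPKM was 0.421, 0.457 and 0.359 in WT and 1.06, 0.886, 0.617 and 0.805 in ORP4L KI libraries, a pair chosen after the values were seen. Rpa3, the small subunit, was high in a single library, with 40.2 CPM in ORP4L KI replicate 1 beside 10.1 to 12.1 CPM in the other 3 and 7.38 to 12.7 CPM in WT. Its log2 fold change was 0.78, and 0.04 without that library.

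**Figure D3:**
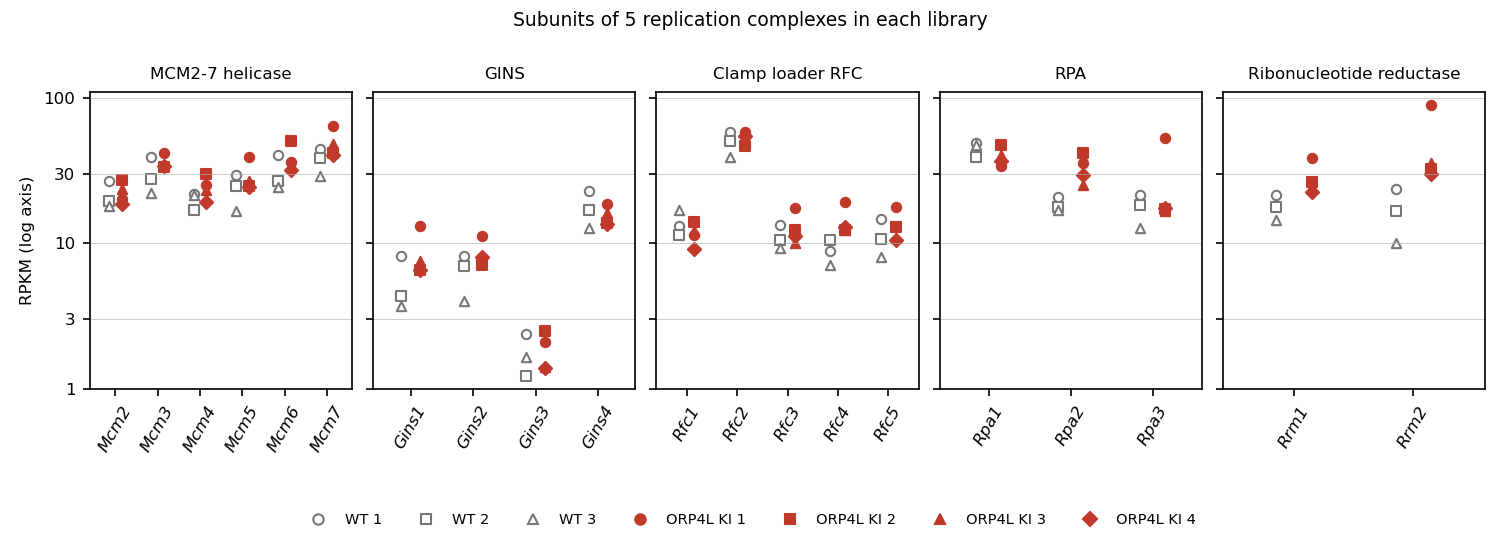
RPKM on a log axis of the subunits of 5 replication complexes in each library. Within RPA, Rpa1 overlaps between groups while Rpa2 does not, and Rpa3 stands apart in ORP4L KI replicate 1 alone. In ribonucleotide reductase, Rrm2 exceeds Rrm1 in the 4 ORP4L KI libraries and in WT replicate 1.

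The genes that finish Okazaki fragments had overlapping groups. Fen1, the nuclease that trims the flap left by the displaced primer, had 38.5, 36.0 and 20.5 CPM in WT and 78.4, 31.7, 44.9 and 50.1 CPM in ORP4L KI libraries. ORP4L KI replicate 2 fell within the WT range, and the log2 fold change was 0.69 (SE 0.33, adjusted p = 0.409, edgeR). Lig1, the ligase that seals the nick, had 66.4, 54.9 and 39.9 CPM in WT and 99.7, 66.3, 60.8 and 65.4 CPM in ORP4L KI libraries. In 3 ORP4L KI libraries its values lay within the WT range, and its log2 fold change was 0.44 (SE 0.25, adjusted p = 0.5, edgeR).

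The genes that supply deoxynucleotides had a median log2 fold change of 0.82, or 0.53 without ORP4L KI replicate 1, and held the single member past both thresholds. Rrm2 (NM_009104, chr12:24708254-24714146 in GRCm38), the S-phase subunit of ribonucleotide reductase, had 47.3, 36.6 and 19.9 CPM in WT and 232.4, 65.1, 78.5 and 70.9 CPM in ORP4L KI libraries. The groups did not overlap, and replicate 1 was far above the other 3. The means were 34.6 ± 13.8 CPM (SD, n = 3) in WT and 111.7 ± 80.6 CPM (SD, n = 4) in ORP4L KI. The log2 fold change was 1.69 (SE 0.51, unadjusted p = 0.00818, adjusted p = 0.164, edgeR). Without ORP4L KI replicate 1 it was 1.05 with an unadjusted p of 0.00604 by edgeR, so that the call did not rest on that library. The call was lost without WT replicate 1, 2 or 3, at log2 fold changes of 1.98, 1.73 and 1.41 and unadjusted p-values of 0.0111, 0.0226 and 0.0371 by edgeR. It was also lost with counts thinned to the smallest library, at 1.67 and an unadjusted p of 0.01005 by edgeR, where Cdc6 was called instead. Rrm1, the large subunit of the same enzyme, had a log2 fold change of 0.82 and did not overlap between groups. The ratio of Rrm2 to Rrm1 in RPKM, a pair chosen after the values were seen, was 1.09, 0.939 and 0.699 in WT and 2.31, 1.24, 1.46 and 1.32 in ORP4L KI libraries.

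The other genes of nucleotide supply overlapped between groups. Tk1, the salvage enzyme that phosphorylates thymidine, had a log2 fold change of 1.06 with an SE of 0.48, which was 0.54 without ORP4L KI replicate 1, and ORP4L KI replicate 2 lay within the WT range. Tyms, which makes thymidylate, had a log2 fold change of 0.50, and was at 165.1 CPM in ORP4L KI replicate 1 beside 59.0 to 83.2 CPM in the other 3 libraries and 57.3 to 78.9 CPM in WT. Dut, which removes dUTP, had 53.7, 44.4 and 22.6 CPM in WT and 94.8, 36.2, 46.0 and 49.4 CPM in ORP4L KI libraries. In 3 ORP4L KI libraries the values of Dut lay within the WT range, and its log2 fold change of 0.49 (SE 0.38, adjusted p = 0.662, edgeR) was the smallest of this role.

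The subunits of chromatin assembly factor 1, which places histones on new DNA, were higher in ORP4L KI replicate 1. Chaf1a had 23.5, 16.98 and 11.4 CPM in WT and 42.1, 19.8, 21.4 and 20.9 CPM in ORP4L KI libraries. Chaf1b had 19.8, 16.4 and 11.4 CPM in WT and 28.7, 17.5, 22.0 and 22.0 CPM in ORP4L KI libraries. Both overlapped between groups, with log2 fold changes of 0.59 (SE 0.34) and 0.51 (SE 0.26) and adjusted p-values of 0.522 and 0.441 by edgeR.

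Added over the 42 genes, the level was 2058, 1821 and 1474 CPM in WT replicates 1 to 3 and 3322, 2127, 2193 and 2275 CPM in ORP4L KI replicates 1 to 4. The groups did not overlap, but the gap between the highest WT and the lowest ORP4L KI library was smaller than the range within either group. As a plain share of counts, without TMM scaling, the sum was 0.223%, 0.182% and 0.163% in WT and 0.278%, 0.232%, 0.218% and 0.209% in ORP4L KI libraries, and there WT replicate 1 was above ORP4L KI replicates 3 and 4. Mpo, the myeloperoxidase of primary granules in neutrophil precursors, served as a reference and had 129.3, 24.8 and 17.6 CPM in WT and 2630, 377.7, 579.1 and 904.9 CPM in ORP4L KI libraries. On the TMM scale the sum of the replication genes and Mpo put the libraries in the same order within each group, with replicate 1 highest in both groups, but over very different ranges. As a plain share the order of the sum in ORP4L KI was another, with replicate 2 next to the highest and replicate 4 the lowest. Of the single members, 12 of 42 had the 4 ORP4L KI libraries in the order of Mpo (28.6%, beside 16.7% of all genes tested) and 30 had the 3 WT libraries in that order (71.4%, beside 21.1%). Rpa2, chosen after its values were seen, was among the many members without that order in ORP4L KI. Like Mpo it was highest in replicate 1, but its next highest value was in replicate 2, the library with the least Mpo. The isolation kit named in the study's general methods is one for naive CD4+ T-cells. Whether Mpo-expressing cells contributed to the levels of the replication genes was not tested.

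**Figure D4:**
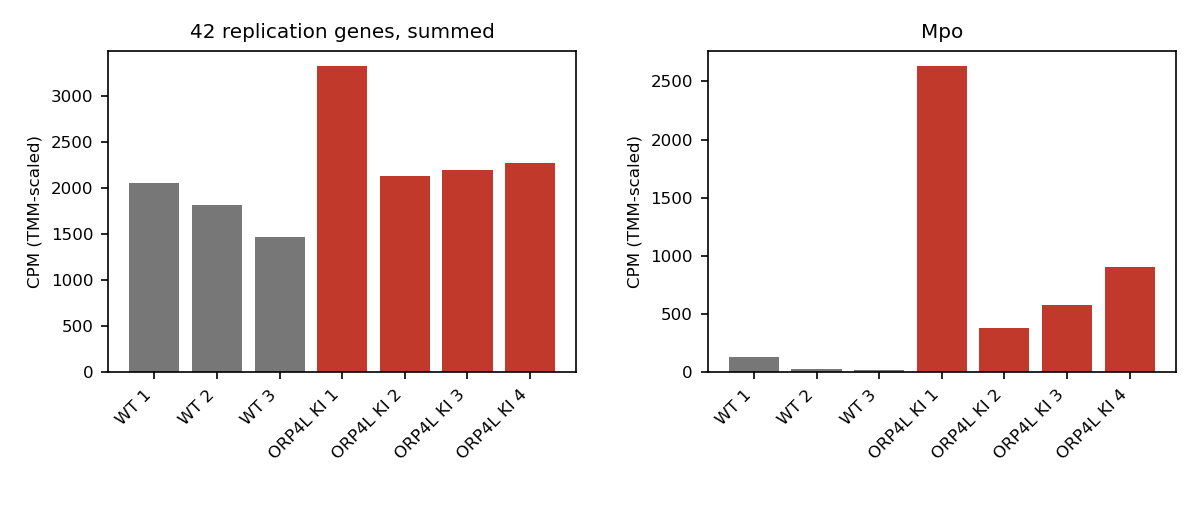
Summed CPM of the 42 replication genes and CPM of Mpo in each library, as bars from 0, WT in grey and ORP4L KI in red. The sum runs from 1474 to 2058 CPM in WT and from 2127 to 3322 CPM in ORP4L KI, and Mpo from 17.6 to 129.3 and from 377.7 to 2630 CPM.

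Replication factors outside the list, regulators of entry into S phase, mitosis genes and quiescence genes were examined for comparison. At both thresholds 2.38% of all genes tested were called higher, the share to set beside each count of these lists. Of 38 other replication factors, 28 had a log2 fold change above 0, with a median of 0.16. Of the 38, 1 was past both thresholds, which is near that share: Ticrr, which recruits Cdc45 to origins. Ticrr had 5.78, 5.47 and 5.90 CPM in WT and 19.8, 10.1, 9.99 and 12.1 CPM in ORP4L KI libraries, a log2 fold change of 1.18 (SE 0.30, adjusted p = 0.113, edgeR). The call of Ticrr was lost without WT replicate 1 or 2 or ORP4L KI replicate 1, which left 0 of the 38 called. Of 18 regulators of the G1/S step, 4 were past both thresholds, all higher, with log2 fold changes of 1.78 for E2f8 and 1.55 for E2f7, both repressors of E2F targets, 1.48 for Ccne2, a cyclin of CDK2, and 1.18 for Tfdp1, the partner of E2F proteins. In 7 of the 18, these 4 among them, every ORP4L KI library lay above every WT library, beside 6.43% of all genes tested. Of the 18, 1 was called without WT replicate 2 or WT replicate 3, and 2 without WT replicate 1 or ORP4L KI replicate 1. Of 20 mitosis genes, 20 had a log2 fold change above 0, with a median of 1.22, and 3 were past both thresholds, Mki67, Top2a and Kif11, at 1.11, 1.01 and 1.28. By p alone, under 0.05 without adjustment in edgeR, 17 of the 20 were higher and 0 lower. The matching shares were 21.4% of the members and 6.85% of all genes tested. Every ORP4L KI library lay above every WT library in 11 of the 20, beside 26.2% of the members and 6.43% of all genes. ORP4L KI replicate 1 was the highest library for all 20. Without it the median of the mitosis genes was 0.75, beside 0.26 for the members. None of the 3 genes past both thresholds kept that call without WT replicate 2, WT replicate 3 or ORP4L KI replicate 1, where no mitosis gene was called. Of 10 genes linked to quiescence, such as Btg1 and Cdkn1b, 0 were called lower by edgeR's quasi-likelihood test at these thresholds, 0 were lower at an unadjusted p under 0.05, 0 were called by DESeq2's Wald test, and their median was 0.21. Of the same 10, 2 were higher at an unadjusted p under 0.05 by edgeR, Slfn2, which helps keep T-cells quiescent, and Tsc22d3, a glucocorticoid-induced gene, at log2 fold changes of 0.70 and 0.53.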

How the data were processed

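Libraries of T-cell mRNA, 4 of ORP4L KI mice and 3 of WT mice, were sequenced. The authors trimmed adapters, mapped reads with FANSe3 to a reference set of mouse mRNAs (version not given in the sources used here), added up splice variants per gene, and deposited raw read counts. The submitters' processing notes name mm10. The authors also deposited RPKM per gene, used here only to compare levels between genes and never in a test. How the mapping handled reads that fit several genes, which bears on paralogs, is not given in the sources used here.

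Samples were grouped by the genotype in the labels. No 2 libraries agreed within sampling noise. The counts were fitted with edgeR 4.0.16 under R 4.3.3. After filterByExpr (minimum count 10, minimum total 15) and TMM scaling, 13462 genes entered the quasi-likelihood test with no covariate and adjusted by Benjamini-Hochberg. CPM values are TMM-scaled. The standard error is the log2 fold change divided by the square root of F. The study's methods name no test for these counts, so thresholds were taken from its volcano plot. Alternatives changed the scaling (size factors of DESeq2, upper quartile, total counts), the filter (none, or 10 counts in every library), the test (Wald test of DESeq2 1.42.0, likelihood ratio and exact tests of edgeR), and the samples (each library left out, thinning to the smallest library, a block by replicate number). A looser threshold was p under 0.05 with a log2 fold change of 0.5. A fit with sex, read from Xist and Ddx3y, was chosen after seeing the data. With it the median log2 fold change of the members was 0.40, with 36 of the 42 above 0. At an unadjusted p under 0.05 by edgeR, 8 members were higher in that fit (19.0%, beside 5.56% of all genes). Scripts were tested on simulated data.

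The members and the comparison lists were chosen with earlier results of these data known. All 42 members are named. Values in every library are given for members past both thresholds and, in each role, for the largest and the smallest log2 fold change and the highest mean RPKM. Of other lists, genes past both thresholds, Mpo and Osbp2 are given, and marker lists are given by counts and sums. Values of other members, the gene pairs and the quiescence, erythroid, progenitor, NK cell and T-cell genes named as examples were chosen after their values were seen. Promoter windows are those of RefSeq (GRCm38.p6), and in 31 of the 40 windows of members the first 30 transcribed bases were found in a GENCODE transcript of the gene on the same strand, and in 0 on the other. Depth ranged from 12918187 to 19665679 counts, and the precision of each count covers counting error only. Python 3.11.15 with pandas 2.3.3 made the tables, and Matplotlib 3.10.9 the figures.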

Additional observations from a re-analysis of the deposited data

Results flagged for a closer look

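Within the 4 ORP4L KI libraries, replicate 1 stood apart from the other 3 by Dixon's criterion in 12 of the 44 quantities examined. These quantities come from the same libraries and are not independent. The nominal rate of the criterion, about 1 in 20 or 2.2, is therefore no measure of chance here. The quantities were the 42 replication genes, their sum and Mpo. Of the 42 genes alone 11 met the criterion (26.2%), beside 8.33% of all genes tested with any ORP4L KI library distant and 4.33% with replicate 1 distant and highest. In replicate 1 the summed level of the members was 3322 CPM. Among the licensing and helicase genes its levels were 28.98 CPM for Cdc6, 161.8 CPM for Mcm5, 23.19 CPM for Mcm10 and 17.04 CPM for Gins1. For genes at the fork they were 13.33 CPM for Pole2, 36.77 CPM for Rfc5, 40.24 CPM for Rpa3 and 99.71 CPM for Lig1. For ribonucleotide reductase and chromatin assembly they were 184.3 CPM for Rrm1, 232.4 CPM for Rrm2 and 42.06 CPM for Chaf1a. In each of these 12 quantities replicate 1 was the highest of its group. The same library had the largest share of neutrophil precursor markers, 11.64% of counts beside 1.082% to 4.535% in the other 3, and the lowest summed T-cell markers, 1600 CPM beside 3303 to 4472 CPM. The part of either in the levels of the replication genes was not tested.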

How the results depend on the processing

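No member was called lower under any alternative, and the median log2 fold change of the members stayed above 0 in each, from 0.26 to 0.62 when single libraries were left out. The number of members past both thresholds, 1 by the quasi-likelihood test, was 2 with DESeq2's size factors, without the filter, and with edgeR's likelihood ratio and exact tests, 3 with DESeq2's Wald test, 9 at p under 0.05 and a log2 fold change of 0.5, and 0 to 2 with single libraries left out. All genes called higher were 2.46%, 2.26%, 3.47%, 3.37%, 3.64% and 6.58% in the same order, beside 4.76% of the members for 2, 7.14% for 3 and 21.4% for 9. With single libraries left out, 1.23% to 3.65% of all genes were called higher. At an adjusted p under 0.05 it was 3 with the Wald test and 2 with the likelihood ratio and exact tests, beside 5.82%, 5.24% and 5.07% of all genes. Leaving out single libraries gave 5 to 14 members at p under 0.05 and 11 to 22 without overlap, and total counts alone gave 7 without overlap. Other replication factors numbered 4 at the looser threshold and 0 to 1 with libraries left out. G1/S regulators numbered 2 with total counts, 8 at the looser threshold and 1 to 5 with libraries left out. Mitosis genes numbered 1 with total counts, 10 without the filter, 12 with the Wald, likelihood ratio and exact tests, 17 at the looser threshold and 0 to 13 with libraries left out. The causes of these changes were not tested.

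The deviations of same-numbered libraries correlated at 0.171, -0.581 and 0.0292 for numbers 1, 2 and 3. Those of libraries with different numbers correlated at -0.426 to 0.548. These values cannot show whether same-numbered mice were paired, and the labels give only a shared number. With the replicate number as a replicate block, which leaves out ORP4L KI replicate 4, 2 members (Cdc6 and Rrm2, beside 1.99% of all genes) and 15 mitosis genes were past both thresholds. The block turned Gins4 to 0.0462, Pold2 to 0.0205 and Rfc1 to 0.000161 in log2 fold change.

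Members near 0 changed sign. Gins4 was 0.014 with DESeq2's size factors, 0.0139 with its Wald test, 0.00274 without the filter and 0.0625 with thinned counts. Pola2 was -0.061 with upper-quartile scaling, -0.14 with total counts, -0.00366 with 10 counts in every library, -0.00286 with thinned counts and -0.00794 with sex as a covariate. With single libraries left out Gins4 ran from -0.20 to 0.21, Pola2 from -0.0646 to 0.093, Pold1 from -0.156 to 0.0722, Pold2 from -0.18 to 0.12, Pole2 from -0.0102 to 0.349, Rfc1 from -0.177 to 0.0531 and Rpa1 from -0.10 to 0.00364. Among the planned values of single members, 703 kept direction and call, 21 gained the call, 4 lost it, and 28 changed sign. The gained calls include those at the looser threshold, where a call can only be gained. Every member had at least 47 reads in each library, and the 3 and 4 mice per group limit the precision.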
